A study of Arabidopsis thaliana with 9 samples.

Results

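The comparison described here sets 3 libraries of the Arabidopsis thaliana mutant pp4r3a-2 against 3 libraries of the mutant pp4r3a-1, gene by gene, on exon counts. These 6 of the 9 libraries of the series were chosen by their genotype label, and the 3 libraries of wild-type Col-0 are given beside the genes that the results turn on to show which allele departs from the wild type. All 3 genotypes were whole seedlings aged 12 days in the Col-0 background, grown on plates of diluted Murashige and Skoog medium under long days, with no treatment named. The 2 mutants carry different alleles of PP4R3A (AT3G06670); the labels name neither the lesion of each allele, nor the number of lines behind it, nor the hour of harvest. Polyadenylated RNA was sequenced from 3 biological replicates of each genotype.

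PP4R3A is a regulatory subunit of protein phosphatase 4 (PP4), a conserved serine/threonine phosphatase in which a catalytic subunit works with subunits of the R2 and R3 families that select its substrates. The 2 catalytic subunits of Arabidopsis are PPX1 and PPX2. In plants the complex is known for roles in microRNA production and in the DNA damage response. Mutant alleles of one gene can differ in how much of its product remains, and they can also carry unlinked differences of the line, so a gene that differs between 2 alleles may or may not follow the amount of the product.

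Exon counts per library ran from 20733294 to 27022497. A count of 3 in a library corresponded to 0.111 to 0.149 counts per 1e6 counts of the scaled library total (CPM). Of 37869 loci in the tables, 22631 had enough counts to be tested. The biological coefficient of variation was 0.0388, and the first 2 principal components, with 72.7% and 17.7% of the variance, separated the 3 genotypes. Replicate 3 of pp4r3a-2 stood apart from its group: chloroplast-encoded genes took 0.962% of its exon counts, against 0.427% to 0.558% in the other 8 libraries, and its counts differed from the other pp4r3a-2 replicates with a chi-square of 8.31 and 12.1 per gene, against 1.62 to 3.99 for the remaining pairs. Counts without that library are given with the processing alternatives.

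The 2 alleles differed first in the targeted gene itself. PP4R3A stood at 59.2, 64.5 and 63.1 CPM in pp4r3a-1 and at 18.7, 18.3 and 18.3 CPM in pp4r3a-2. In Col-0 it stood at 81.3, 79.1 and 81.6 CPM. All 3 pp4r3a-2 libraries lay below all pp4r3a-1 libraries, and these lay below all Col-0 libraries. The log2 difference between the alleles was -1.76 (SE 0.050, 3.38-fold, edgeR adjusted p 1.42e-26). Against Col-0 the log2 values were -0.37 in pp4r3a-1 and -2.13 in pp4r3a-2. Intron counts of the gene were 134, 121 and 100 for pp4r3a-1, 56, 57 and 49 for pp4r3a-2 and 36 to 43 for wild type, so between the alleles they were lower in pp4r3a-2, like the exon counts. Per 100 exon counts of PP4R3A this came to 1.76 to 2.21 intron counts in Col-0, 6.95 to 8.40 in pp4r3a-1 and 12.3 to 13.3 in pp4r3a-2.

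Among the other measured PP4 genes, PPX2, a catalytic subunit, had 13.1, 11.4 and 12.2 CPM in pp4r3a-1, against 12.3, 12.9 and 12.0 CPM in pp4r3a-2 and 14.7 to 15.3 CPM in Col-0. The 2 alleles overlapped, and the log2 difference of 0.02 (SE 0.074) was not called (edgeR adjusted p 0.842). PPX1, the other catalytic subunit, was 1.11-fold higher in pp4r3a-2 (log2 0.15, SE 0.053, edgeR adjusted p 0.0221), with the Col-0 mean of 28.9 CPM between the alleles. The call was lost with DESeq2 (adjusted p 0.0691), with other scalings, and without pp4r3a-1 replicate 3 or pp4r3a-2 replicate 1 or 3 (edgeR adjusted p 0.149, 0.0643 and 0.0674). The gene overlaps a gene on the opposite strand, and the strandedness of the counts was not given. PP4R2L, a subunit of the R2 family, had a log2 value of 0.14 (SE 0.068) that was not called (edgeR adjusted p 0.0983; 0.0252 without pp4r3a-2 replicate 2). Of the 10 loci that flank PP4R3A, 5 on each side, 7 could be tested. AT3G06660, a PAPA-1-like zinc finger gene, was higher in pp4r3a-2 (log2 0.24, edgeR adjusted p 0.00925; 0.0927 without pp4r3a-2 replicate 1), and AT3G06680, a ribosomal L29e protein gene, was lower (log2 -0.35, edgeR adjusted p 0.00602). The other 5 tested neighbours were not called, among them ALDH22A1 and IMPA-1. Over all tested genes, 47.9% were called in one direction or the other.

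Across all genes the alleles differed widely but mostly by little. In pp4r3a-2, 5484 genes (24.2% of those tested) were higher and 5361 genes (23.7%) were lower than in pp4r3a-1, 10845 in all (47.9%), with edgeR's quasi-likelihood test at an adjusted p under 0.05. The median absolute log2 difference of the called genes was 0.35, and 7908 of them (72.9%) differed by less than 1.5-fold. At least 2-fold differences numbered 515 higher (2.28%) and 613 lower (2.71%), and at least 4-fold differences 79 higher and 68 lower. For 12100 genes (53.5%) the 3 libraries of one allele did not overlap with the 3 of the other. The list counts below are to be read beside these shares of all tested genes. Because the samples are whole seedlings, a lower count can mean fewer cells of a type or less RNA per cell, which cannot be told apart here.

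The Col-0 mean was placed beside the 2 allele means of each called gene, and for most of these genes it lay outside both. Of the genes higher in pp4r3a-2, the Col-0 mean lay above both allele means for 2420 genes (44.1%), below both for 1750 (31.9%) and between them for 1314 (24.0%). For the genes lower in pp4r3a-2 it lay below both for 2637 (49.2%), above both for 1409 (26.3%) and between them for 1315 (24.5%). On the log scale the Col-0 mean was nearer to pp4r3a-2 than to pp4r3a-1 for 56.2% of the higher and 61.0% of the lower genes. Among genes at least 2-fold higher these shares were 50.5%, and among genes at least 2-fold lower 60.0%. These positions are descriptions of means, without a test, and a relation to the amount of PP4R3A transcript was not tested.

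**Figure D1:**
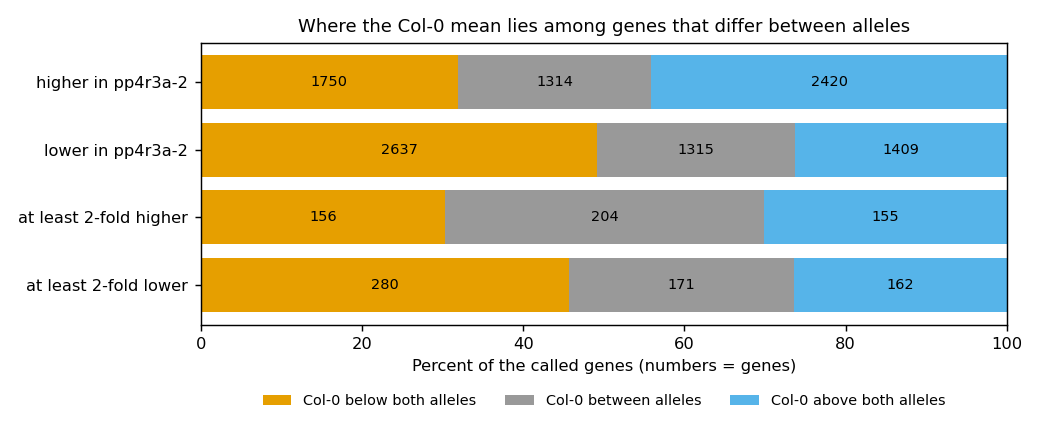
Position of the Col-0 mean CPM among genes called different between pp4r3a-2 and pp4r3a-1, as a percentage of each class (x axis), with the number of genes written in each segment. Of the genes lower in pp4r3a-2, 2637 have a Col-0 mean below both alleles, and of those higher in pp4r3a-2, 2420 have a Col-0 mean above both.

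Small heat shock protein genes, whose products hold unfolding proteins in a soluble state, were mostly higher in pp4r3a-2 than in pp4r3a-1. Of 15 tested members of the list, 14 were higher and 1 lower, and 11 were at least 2-fold higher; the median log2 difference was 1.81, against 0.00 over all tested genes. Median log2 values against Col-0 were 0.26 in pp4r3a-1 and 2.09 in pp4r3a-2; in pp4r3a-1, 6 members were called above Col-0 and 2 below. HSP17.6C stood at 0.297, 0.475 and 0.351 CPM in pp4r3a-1 and at 7.81, 8.06 and 6.75 CPM in pp4r3a-2, with 0.235 to 0.294 CPM in Col-0. No library of the 2 alleles overlapped, and the log2 difference of 4.33 (SE 0.18, edgeR adjusted p 2.99e-21) was the largest among higher genes with a mean of at least 1 CPM. HSP17.6A had 1.11, 0.593 and 0.658 CPM in pp4r3a-1, against 12.1, 12.5 and 10.6 CPM in pp4r3a-2, a 14.6-fold difference (log2 3.87, edgeR adjusted p 2.23e-22). Its Col-0 libraries stood at 0.294 to 0.392 CPM, and pp4r3a-1 was called above them (log2 1.14, edgeR adjusted p 0.00228). HSP17.8 differed by 6.32-fold (log2 2.66, edgeR adjusted p 2.27e-20), with pp4r3a-1 not called against the 1.21 to 1.74 CPM of Col-0. HSP17.6II stood at 0.371, 0.277 and 0.263 CPM in pp4r3a-1 and at 2.59, 2.65 and 3.43 CPM in pp4r3a-2, with 0.235 to 0.504 CPM in Col-0 (log2 3.2). HSP17.4 (log2 3.62) overlaps 2 opposite-strand genes, one of them the long noncoding RNA AT3G07365 (log2 3.69), so their counts cannot be told apart; in pp4r3a-1 it was called above Col-0 (log2 1.13, edgeR adjusted p 0.000287). The 1 lower member, HSP17.4B, named after its value was seen, had a log2 difference of -0.25 (edgeR adjusted p 0.012), a call that was lost with DESeq2 and without pp4r3a-2 replicate 3.

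Heat shock factors and large chaperones were split: 18 of 32 tested members were higher, 5 lower and 9 not called, with a median of 0.31. HSP70B, a cytosolic heat-inducible HSP70, stood at 4.53, 4.59 and 5.22 CPM in pp4r3a-1 and at 29.1, 30.9 and 31.2 CPM in pp4r3a-2. Col-0 lay between, at 7.35 to 7.72 CPM, so that the alleles departed to opposite sides of it. The difference was 6.38-fold (log2 2.67, SE 0.075, edgeR adjusted p 1.13e-26). HSP90.1, the heat-inducible cytosolic HSP90, showed the same order, with 8.53 to 10.3 CPM in pp4r3a-1, 10.8 to 12.4 CPM in Col-0 and 45.9 to 51.1 CPM in pp4r3a-2 (log2 2.39, edgeR adjusted p 1.61e-26). HSP70 (AT3G12580) differed by 2.76-fold (log2 1.47), and HSP101, a disaggregase that overlaps an opposite-strand gene, by 2.5-fold (log2 1.32). The 5 lower members, named after their values were seen, were HSFA6B (log2 -2.37), HSFC1 (-0.46), HSC70-3 (-0.32), CLPB3 (-0.16) and HSP90.2 (-0.13). The unfolded protein response of the endoplasmic reticulum had 4 of 13 members higher and 5 lower (median -0.02). BIP3, its inducible chaperone, was 2.04-fold higher in pp4r3a-2 (log2 1.03, edgeR adjusted p 3.64e-07), while the abundant chaperone genes BIP2 and CNX1 were lower by log2 values of -0.21 and -0.20.

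**Figure D2:**
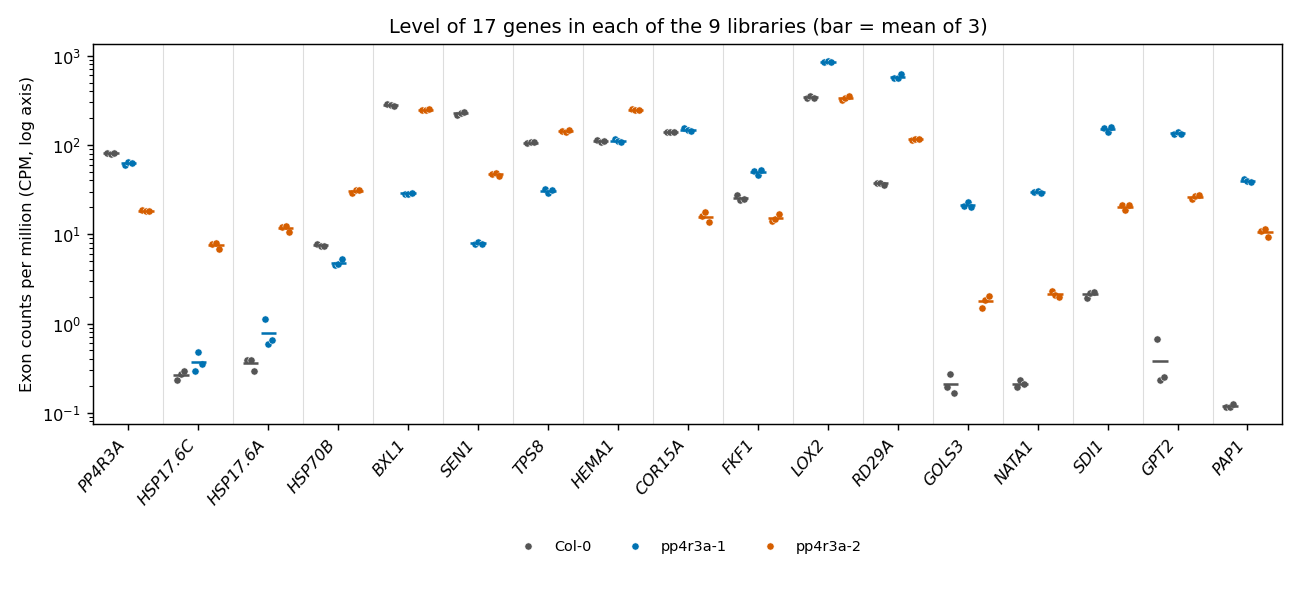
Exon CPM on a log axis of 17 genes in each of the 9 libraries, with grey for Col-0, blue for pp4r3a-1 and orange for pp4r3a-2 and a bar at each mean of 3. The orange points lie above the blue ones for HSP17.6C, HSP17.6A, HSP70B, BXL1, SEN1, TPS8 and HEMA1, and below them for PP4R3A and the 9 genes from COR15A to PAP1.

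Genes that seedlings express in darkness or when sugar runs short formed the list with the next largest positive median. Of 19 tested members, 15 were higher in pp4r3a-2 and 3 lower, 10 were at least 2-fold higher, and the median log2 difference was 1.17. Here pp4r3a-1 was the allele further from wild type: median log2 values against Col-0 were -1.79 in pp4r3a-1 and -0.51 in pp4r3a-2. SEN1, a dark-inducible senescence gene, stood at 7.75, 8.23 and 7.72 CPM in pp4r3a-1, at 47.1, 48.2 and 45.4 CPM in pp4r3a-2 and at 217 to 232 CPM in Col-0. The alleles did not overlap and both lay below Col-0 (allele log2 2.57, 5.93-fold, edgeR adjusted p 8.88e-30). TPS8, a class II trehalose phosphate synthase gene, stood at 29.0 to 32.1 CPM in pp4r3a-1 against 141 to 145 CPM in pp4r3a-2, with Col-0 between at 105 to 107 CPM (log2 2.22, edgeR adjusted p 1.23e-31). ASN1, which encodes asparagine synthetase, had log2 2.36, and DIN10, a raffinose synthase family gene, had log2 1.76; both overlap an opposite-strand gene. The 3 lower members, named after their values were seen, were TPS5 (log2 -1.08), DIN2 (-0.32) and EXL4 (-0.19).

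BXL1, a beta-xylosidase that trims cell wall polysaccharides, had the largest difference among higher genes with at least 100 CPM. It stood at 28.2, 28.5 and 29.1 CPM in pp4r3a-1 and at 248, 246 and 254 CPM in pp4r3a-2. In Col-0 it stood at 270 to 287 CPM, so that pp4r3a-2 lay close to wild type and pp4r3a-1 far below it (log2 3.12, SE 0.042, 8.72-fold, edgeR adjusted p 1.62e-36). Among the other abundant genes, AT3G15450, an aluminum-induced protein gene, had log2 2.17, and J8, a DnaJ-domain chaperone gene, had log2 1.67. Both overlap an opposite-strand gene, and both stood below Col-0 in each allele, further in pp4r3a-1. AT2G20670, a DUF506 gene, stood at 50.1 to 57.5 CPM in pp4r3a-1, 132 to 133 CPM in Col-0 and 179 to 181 CPM in pp4r3a-2 (log2 1.72). AT5G40450, an A-kinase anchor-like gene that also overlaps an opposite-strand gene, varied more between replicates. It had 25.5, 47.6 and 41.3 CPM in pp4r3a-1, against 234, 271 and 358 CPM in pp4r3a-2 (log2 2.92, SE 0.26, edgeR adjusted p 0.000113). In Col-0 it stood at 538 to 549 CPM.

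Less abundant genes with large positive differences included PDF1.3, a plant defensin, and AT3G20395, a RING/U-box gene. PDF1.3 stood at 0.705, 0.475 and 0.351 CPM in pp4r3a-1, at 5.39, 4.82 and 4.22 CPM in pp4r3a-2 and at 5.56 to 5.84 CPM in Col-0 (log2 3.21, edgeR adjusted p 1.49e-16). AT3G20395 stood at 0.317 to 0.594 CPM in pp4r3a-1, 4.2 to 5.56 CPM in pp4r3a-2 and 2.90 to 3.94 CPM in Col-0 (log2 3.49). In both genes the pp4r3a-1 libraries were the low ones. The noncoding RNA AT5G03615 had 0.0439 to 0.186 CPM in pp4r3a-1, at or near 3 counts, and 1.59 to 2.25 CPM in pp4r3a-2 (log2 4.03). Its Col-0 libraries stood at 1.41 to 1.72 CPM, and pp4r3a-2 was not called against them. SKS2, an SKU5-similar gene that overlaps an opposite-strand gene, had 0.219 to 0.554 CPM in pp4r3a-1 against 2.92 to 3.87 CPM in pp4r3a-2 (log2 3.08). In SKS2 the departure lay in pp4r3a-2, since pp4r3a-1 was not called against the 0.235 to 0.378 CPM of Col-0.

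Genes of the photosynthetic apparatus were higher in pp4r3a-2 by small amounts. Of 18 tested light-harvesting antenna genes, 14 were higher and 0 lower (median log2 0.23). Rubisco and Calvin cycle genes had 16 higher and 1 lower of 17 (median 0.26), and chlorophyll synthesis genes 10 higher and 0 lower of 12 (median 0.27). Under a scaling by upper quartile or by library totals, and without pp4r3a-1 replicate 2, 1 antenna gene was called lower. LHCB1.1, a major antenna gene with near-identical neighbours that may share reads, stood at 2754, 2413 and 2638 CPM in pp4r3a-1 and at 3680, 3696 and 3456 CPM in pp4r3a-2, against 1200 to 1254 CPM in Col-0 (log2 0.47, edgeR adjusted p 2.74e-12). For the Calvin cycle gene RPE, a pentose epimerase, Col-0 was above both alleles: 513 to 529 CPM in Col-0, 269 to 273 CPM in pp4r3a-1 against 376 to 383 CPM in pp4r3a-2 (log2 0.49). RBCS3B, a Rubisco small subunit, had the same order (log2 0.49), and RBCS2B, named after its value was seen, was the 1 lower member (log2 -0.25). HEMA1, glutamyl-tRNA reductase at the start of chlorophyll synthesis, stood at 115, 112 and 109 CPM in pp4r3a-1, the level of Col-0 (109 to 112 CPM), and at 254, 247 and 246 CPM in pp4r3a-2 (log2 1.15, SE 0.036, edgeR adjusted p 4.88e-25).

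Genes of the abscisic acid, cold and drought responses were mostly lower in pp4r3a-2. Of 38 tested members, 32 were lower and 3 higher, 17 were at least 2-fold lower, and the median log2 difference was -0.86. Both alleles were above Col-0 on the median, by log2 values of 2.02 in pp4r3a-1 and 0.88 in pp4r3a-2. The Col-0 mean lay below both alleles for 29 of the 38 members, between them for 6 and above both for 3. RD29A, a desiccation- and cold-responsive gene, stood at 561, 561 and 620 CPM in pp4r3a-1 and at 114, 116 and 117 CPM in pp4r3a-2. In Col-0 it stood at 36.0 to 37.8 CPM, below every mutant library (allele log2 -2.33, SE 0.040, 5.01-fold, edgeR adjusted p 7.16e-33). GOLS3, a cold-inducible galactinol synthase of raffinose synthesis, stood at 20.7, 22.8 and 20.2 CPM in pp4r3a-1, next to 1.49, 1.82 and 2.04 CPM in pp4r3a-2 and 0.168 to 0.271 CPM in Col-0 (log2 -3.58, edgeR adjusted p 6.85e-26).

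The 2 cold-regulated genes COR15A and COR15B, whose products protect chloroplast membranes in the cold, were among the members that did not follow that order. COR15A stood at 153, 146 and 143 CPM in pp4r3a-1 and at 16.0, 17.62 and 13.8 CPM in pp4r3a-2. Col-0 stood at 139 to 141 CPM, at the level of pp4r3a-1, so the difference (log2 -3.21, SE 0.053, 9.27-fold, edgeR adjusted p 7.16e-33) lay in pp4r3a-2. COR15B, which overlaps an opposite-strand gene, was at 138 to 149 CPM in Col-0, 50.5 to 57.5 CPM in pp4r3a-1 against 15.6 to 16.8 CPM in pp4r3a-2 (log2 -1.77). CBF3, a transcription factor of the cold response, was low in all libraries, at 1.58 to 2.89 CPM in pp4r3a-1, 0.212 to 0.347 CPM in pp4r3a-2 and 0.126 to 0.196 CPM in Col-0 (log2 -2.94); it also overlaps an opposite-strand gene. The 3 higher members, named after their values were seen, were PYR1, an abscisic acid receptor (log2 0.65), CYP707A3, an abscisic acid catabolic enzyme (0.62), and RD26 (0.39). MIPS1, the myo-inositol phosphate synthase of the galactinol pathway, stood at 209 to 225 CPM in pp4r3a-1, 69.3 to 72.7 CPM in pp4r3a-2 and 63.1 to 64.6 CPM in Col-0 (log2 -1.62).

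The 250 bases upstream of the annotated starts of GOLS3 and COR15A are printed because these genes had the largest allele differences among the 4 members of this list with the smallest p, and because known cold and drought response elements can be read in them. They were read from the RefSeq TAIR10.1 genome, GOLS3 from chr1:3019389-3019638 on the plus strand and COR15A from chr2:17712331-17712580 on the minus strand, each 5′ to 3′ along the gene. Capitals mark ACGTG, the core of the abscisic acid response element, and CCGAC, the core of the drought response element, on either strand; CACGTG holds ACGTG in both orientations.
GOLS3: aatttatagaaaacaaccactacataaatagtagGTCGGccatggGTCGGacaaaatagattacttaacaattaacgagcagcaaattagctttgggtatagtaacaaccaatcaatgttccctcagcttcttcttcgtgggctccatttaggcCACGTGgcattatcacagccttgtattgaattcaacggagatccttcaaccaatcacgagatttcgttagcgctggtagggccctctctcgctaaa
COR15A: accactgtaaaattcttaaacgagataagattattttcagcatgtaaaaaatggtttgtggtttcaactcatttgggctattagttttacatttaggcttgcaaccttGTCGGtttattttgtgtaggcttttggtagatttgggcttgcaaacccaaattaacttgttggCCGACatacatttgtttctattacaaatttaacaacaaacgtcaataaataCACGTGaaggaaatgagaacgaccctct
Each window held CCGAC in 2 places and CACGTG once. In the same window, ACGTG was found in 23 of 39 promoters of this list (59.0%) and in 6288 of 27443 protein-coding genes (22.9%), and CCGAC in 12 of 39 (30.8%) against 3285 of 27443 (12.0%). For the small heat shock proteins, GAANNTTC, the core of the heat shock element, was found in 4 of 16 windows (25.0%), among them that of HSP17.6C, against 9.55% of all. The windows of HSP17.6C and HSP17.6A overlap a neighbouring gene and are not printed. These are matches of letters in one window and not shown to be bound.

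Flavonoid and anthocyanin genes were mostly lower in pp4r3a-2. Of 28 tested members, 25 were lower and 0 higher, 10 at least 2-fold, with a median log2 difference of -0.93. The Col-0 mean lay below both alleles for 25 members and between them for 3. Median log2 values against Col-0 were 2.81 in pp4r3a-1 and 1.75 in pp4r3a-2. PAP1, the MYB activator of anthocyanin synthesis, stood at 41.4, 39.9 and 38.5 CPM in pp4r3a-1 and at 10.9, 11.5 and 9.23 CPM in pp4r3a-2, with 0.116 to 0.126 CPM in Col-0, which is 3 counts a library. The alleles differed by 3.76-fold (log2 -1.91, SE 0.065, edgeR adjusted p 4.33e-24). UF3GT, an anthocyanin glycosyltransferase, stood at 62.9 to 66.8 CPM and 26.6 to 27.8 CPM in the 2 alleles and at 0.823 to 1.22 CPM in Col-0 (log2 -1.24). F3H, flavanone 3-hydroxylase, had log2 -1.22, and UGT75C1, another glycosyltransferase, log2 -1.49; both overlap opposite-strand genes.

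Jasmonate genes were also mostly lower in pp4r3a-2, with 17 of 26 lower, 8 higher and 1 not called (median -0.53). NATA1, a jasmonate-inducible acetyltransferase that acetylates ornithine, stood at 30.0, 30.7 and 29.3 CPM in pp4r3a-1, next to 2.33, 2.09 and 1.99 CPM in pp4r3a-2 and 0.196 to 0.232 CPM in Col-0. It was 14.0-fold lower in pp4r3a-2 (log2 -3.80, SE 0.089, edgeR adjusted p 4.61e-29). LOX2, the chloroplast lipoxygenase of jasmonate synthesis, stood at 840, 865 and 840 CPM in pp4r3a-1 and at 321, 336 and 353 CPM in pp4r3a-2, the level of Col-0 (335 to 351 CPM), so the departure lay in pp4r3a-1 (log2 -1.33, edgeR adjusted p 2.12e-26). VSP2, a vegetative storage protein used as a jasmonate marker, had log2 -1.71, and AOC2, an allene oxide cyclase, log2 -0.91. NIG1, a bHLH factor, stood at 3.36 to 4.6 CPM in pp4r3a-1, 0.356 to 0.467 CPM in pp4r3a-2 and 0.0773 to 0.157 CPM in Col-0 (log2 -3.2).

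Salicylic acid and defence genes went both ways, with 8 of 27 higher, 12 lower and 7 not called (median -0.21). These were 29.6% higher and 44.4% lower, against 24.2% and 23.7% of all tested genes. PR1, the marker of salicylic acid signalling, stood at 12.4, 12.4 and 9.25 CPM in pp4r3a-1 and at 40.6, 43.7 and 37.6 CPM in pp4r3a-2, with 0.630 to 1.06 CPM in Col-0 (log2 1.83, edgeR adjusted p 1.02e-15). WRKY18, a transcription factor of the same response, was 2.39-fold higher in pp4r3a-2 (log2 1.26) and above the 9.66 to 10.9 CPM of Col-0 in both alleles, and FRK1, a receptor kinase gene that overlaps an opposite-strand gene, was 3.16-fold higher. PBS3, which acts in salicylic acid synthesis, was lower, at 11.6 to 12.8 CPM in pp4r3a-1 against 4.79 to 5.01 CPM in pp4r3a-2 and 2.17 to 2.90 CPM in Col-0 (log2 -1.33, edgeR adjusted p 9.74e-15). Aliphatic glucosinolate genes had 16 of 23 higher and 4 lower (median 0.26), with 0 members at least 2-fold different. MAM1, methylthioalkylmalate synthase 1, was at 222 to 230 CPM in pp4r3a-1 against 384 to 400 CPM in pp4r3a-2 and 127 to 133 CPM in Col-0 (log2 0.79), while its neighbour MAM3 was lower (log2 -0.50); these paralogs may share reads. Indole glucosinolate and camalexin genes had 8 of 18 higher and 4 lower (median 0.08); the lower members numbered 2 with DESeq2 and without pp4r3a-1 replicate 2 or 3 or pp4r3a-2 replicate 1. Their transcription factor MYB34 was lower in pp4r3a-2 (log2 -0.67), and IGMT1, an indole glucosinolate methyltransferase, was higher (log2 1.4), with Col-0 between. NSP5, a nitrile specifier, was at 428 to 482 CPM in pp4r3a-1, 165 to 176 CPM in pp4r3a-2 and 78.0 to 86.0 CPM in Col-0 (log2 -1.45).

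In 3 lists of nutrient-response genes more members were lower than higher in pp4r3a-2. The Col-0 mean lay below both alleles for 12 of 15 sulfate, 20 of 23 phosphate and 12 of 18 iron genes, and above both for the others. Sulfate assimilation had 10 of 15 lower and 2 higher (median -0.73; 2.74 and 1.90 against Col-0 in pp4r3a-1 and pp4r3a-2). SDI1, a sulfur-deficiency gene, stood at 155, 141 and 160 CPM in pp4r3a-1, at 21.3, 18.6 and 21.0 CPM in pp4r3a-2 and at 1.92 to 2.23 CPM in Col-0. The alleles differed by 7.50-fold (log2 -2.91, SE 0.053, edgeR adjusted p 1.78e-31). GGCT2;1, a glutathione-degrading cyclotransferase, had log2 -2.82, and SHM7, a serine hydroxymethyltransferase, log2 -0.97. The 2 higher members, named after their values were seen, were APS4 (log2 0.39) and SULTR1;2 (0.15). Phosphate starvation genes had 11 of 23 lower, 4 higher and 8 not called (median -0.28), with 2 higher without pp4r3a-2 replicate 2. SPX1, a phosphate sensor, stood at 60.3 to 67.1 CPM in pp4r3a-1, 26.9 to 28.7 CPM in pp4r3a-2 and 5.92 to 7.35 CPM in Col-0 (log2 -1.22). Iron genes had 11 of 18 lower and 1 higher (median -0.36), with 2 higher without pp4r3a-1 replicate 2. BHLH39, an iron-deficiency transcription factor, stood at 94.0 to 98.9 CPM in pp4r3a-1 against 36.2 to 40.9 CPM in pp4r3a-2 and 10.8 to 12.2 CPM in Col-0 (log2 -1.32), and FER4, a ferritin named after its value was seen, was the 1 higher member (log2 0.45). Nitrate and ammonium genes showed no single direction, with 7 of 15 higher and 5 lower. NIA2, the main nitrate reductase, was higher in pp4r3a-2 (log2 0.55), and NIR1, nitrite reductase, lower (log2 -0.51); both were below Col-0 in each allele.

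Starch genes were mostly lower in pp4r3a-2 as well. Starch synthesis had 10 of 16 lower and 2 higher (median -0.25), and starch breakdown 13 of 15 lower and 1 higher (median -0.45). GPT2, the plastid glucose 6-phosphate translocator, stood at 134, 139 and 134 CPM in pp4r3a-1, at 24.6, 26.8 and 27.3 CPM in pp4r3a-2 and at 0.232 to 0.666 CPM in Col-0. It was 5.16-fold lower in pp4r3a-2 (log2 -2.37, SE 0.051, edgeR adjusted p 1.30e-29). GBSS1, granule-bound starch synthase, was at 259 to 261 CPM in pp4r3a-1 against 102 to 105 CPM in pp4r3a-2, against 2.32 to 2.63 CPM in Col-0 (log2 -1.32, edgeR adjusted p 4.25e-27). In starch breakdown, DPE2, the cytosolic disproportionating enzyme, had log2 -0.71, and GWD1, glucan water dikinase, log2 -0.54; GWD1 was below Col-0 in both alleles and DPE2 above. BAM9, named after its value was seen, was the 1 higher breakdown member (log2 0.74).

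Clock genes were called in both directions. Of 14 morning genes, 8 were higher in pp4r3a-2, 4 lower and 2 not called (median 0.29), and of 16 day and evening genes, 12 were lower and 1 higher (median -0.32). LHY, a morning-expressed MYB factor, stood at 8.94, 7.71 and 8.82 CPM in pp4r3a-1, at 15.1, 14.6 and 15.04 CPM in pp4r3a-2 and at 0.924 to 1.01 CPM in Col-0 (log2 0.81, edgeR adjusted p 4.28e-11). PRR9, a pseudo-response regulator, went the other way, at 10.09 to 11.4 CPM in pp4r3a-1 against 4.82 to 5.01 CPM in pp4r3a-2 and 0.392 to 0.672 CPM in Col-0 (log2 -1.14). FKF1, an evening light receptor that overlaps an opposite-strand gene, was at 46.5 to 52.4 CPM in pp4r3a-1, 24.2 to 27.8 CPM in Col-0 and 14.2 to 16.8 CPM in pp4r3a-2 (log2 -1.72, edgeR adjusted p 3.19e-22). GI, a day-phased gene, had log2 -0.57, and ELF4, an evening complex gene, log2 -0.77, with pp4r3a-1 at the Col-0 level. CHE, named after its value was seen, was the 1 higher day and evening member (log2 0.36). The evening element AAAATATCT was found in 7 of 16 day and evening promoters (43.8%) and in 2.36% of all. A difference in the hour of harvest was not tested, since the labels give no hour. Light signalling genes had 12 of 20 higher and 4 lower (median 0.22), with CRY1, a blue light receptor, at log2 0.56. Among flowering genes, 11 of 15 were not called; SOC1, a floral integrator, stood at 14.5 to 15.3 CPM in pp4r3a-1, 23.53 to 25.1 CPM in pp4r3a-2 and 29.9 to 32.6 CPM in Col-0 (log2 0.71, edgeR adjusted p 2.34e-12).

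Markers of root cells were lower in pp4r3a-2, with 13 of 15 lower, 0 higher and 2 not called (median -0.58). Median log2 values against Col-0 were 0.13 in pp4r3a-1 and -0.29 in pp4r3a-2. The Col-0 mean lay between the alleles for 8 members, below both for 4 and above both for 3. The summed level of the markers, which abundant members dominate, was 2153 to 2234 CPM in pp4r3a-1, 2068 to 2122 CPM in pp4r3a-2 and 1882 to 1934 CPM in Col-0. Most of this sum was PYK10, a root beta-glucosidase; without it the sums were 195 to 203 CPM, 125 to 139 CPM and 136 to 143 CPM. None of these markers was at 0 in all libraries of a genotype. PRP3, a root hair wall protein, stood at 25.8, 28.1 and 27.4 CPM in pp4r3a-1, at 10.9, 14.4 and 13.1 CPM in pp4r3a-2 and at 13.0 to 14.3 CPM in Col-0 (log2 -1.08). RHD6, a root hair transcription factor, stood at 2.34 to 3.03 CPM in pp4r3a-1, the Col-0 level, and at 0.891 to 1.15 CPM in pp4r3a-2 (log2 -1.4, edgeR adjusted p 6.80e-08). The part of root tissue in the differences of other lists was not tested. Secondary wall genes had 9 of 12 lower and 0 higher (median -0.29), among them the cellulose synthase CESA4 (log2 -0.37), which overlaps other genes. Markers of shoot meristem, guard cells and trichomes summed to 91.1 to 97.4 CPM in pp4r3a-1, 81.5 to 89.4 CPM in pp4r3a-2 and 126 to 130 CPM in Col-0, with WUS at 0 in all pp4r3a-1 libraries; of 9 tested, 2 were lower, KAT1 (log2 -0.30) and SPCH (-0.21), whose call was lost with DESeq2 and without pp4r3a-1 replicate 2 or 3 or pp4r3a-2 replicate 2 or 3.

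Seed storage and maturation genes, normally silent in seedlings, were mostly higher in pp4r3a-2, with 9 of 14 tested higher, 2 lower and 3 not called (median 0.58). Both alleles were above Col-0: the 20 genes summed to 85.4 to 88.2 CPM in pp4r3a-1, 126 to 129 CPM in pp4r3a-2 and 13.8 to 18.5 CPM in Col-0, with CRU2 and LEC1 at 0 in every library. CRA1, a storage globulin, stood at 32.2, 34.3 and 34.7 CPM in pp4r3a-1 and at 51.6, 52.2 and 54.2 CPM in pp4r3a-2, with 4.02 to 6.11 CPM in Col-0 (log2 0.64, edgeR adjusted p 2.88e-12). SESA1, a seed storage albumin, stood at 0.395 to 0.742 CPM in pp4r3a-1, close to Col-0 (0.232 to 0.509 CPM), and at 4.22 to 5.98 CPM in pp4r3a-2 (log2 3.07, edgeR adjusted p 1.4e-15). The 2 lower members, named after their values were seen, were FUS3, a maturation regulator (log2 -1.41), and EM6 (-0.92); under the stricter filter 1 lower member was left. Of 10 floral organ and pollen markers 3 could be tested, and SEP3 was higher in pp4r3a-2 at 3.35 to 3.59 CPM against 1.18 to 1.74 CPM in pp4r3a-1 and 2.63 to 3.17 CPM in Col-0 (log2 1.21).

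Lists of cell cycle and DNA repair genes had small medians, and 0 of their members differed by 2-fold or more. DNA damage genes had 7 of 25 higher and 4 lower (median 0.04), and replication genes 2 of 19 higher and 5 lower (median -0.09). Mitosis genes had 9 of 18 lower and 0 higher (median -0.20). The shares were 28.0% higher and 16.0% lower for DNA damage genes and 10.5% and 26.3% for replication genes. Over all tested genes they were 24.2% and 23.7%. The lower DNA damage genes numbered 2 with DESeq2 and without pp4r3a-1 replicate 3 or pp4r3a-2 replicate 1 or 2. The higher replication genes numbered 0 under library totals and without pp4r3a-1 replicate 1 or pp4r3a-2 replicate 3, and 1 with DESeq2; the lower ones numbered 3 with DESeq2 and without pp4r3a-1 replicate 3 or pp4r3a-2 replicate 2. PARP2, a poly(ADP-ribose) polymerase, stood at 24.8 to 27.5 CPM in pp4r3a-1, 34.0 to 35.6 CPM in pp4r3a-2 and 7.65 to 9.01 CPM in Col-0 (log2 0.40, edgeR adjusted p 1.35e-07). GMI1, a DNA damage marker that overlaps an opposite-strand RNA, had log2 0.43 and was above Col-0 in both alleles. CYCB1;2, a mitotic cyclin, was at 30.6 to 33.4 CPM in pp4r3a-1, and its 22.5 to 25.6 CPM in pp4r3a-2 overlapped with Col-0 (log2 -0.36, edgeR adjusted p 2.35e-06).

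Of the other hormone lists, all but cytokinin had members called in both directions, where 24.2% of all tested genes were higher and 23.7% lower. Auxin genes had 10 of 24 higher and 5 lower; IAA2, an auxin-responsive repressor, stood at 35.6, 38.1 and 36.6 CPM in pp4r3a-1, the Col-0 level, and at 82.1, 90.7 and 84.7 CPM in pp4r3a-2 (log2 1.22, edgeR adjusted p 2.60e-21). Ethylene genes had 8 of 17 higher and 5 lower, with ACS2, an ACC synthase, lower (log2 -1.34). Gibberellin genes had 3 of 19 higher and 6 lower, with GASA1 at log2 1.14, where Col-0 was above both alleles. Brassinosteroid genes had 6 of 12 higher and 2 lower, and cytokinin genes 0 of 14 higher and 3 lower, of which CRF2 had log2 -0.52. The lower cytokinin genes numbered 6 under library totals, and 5 under upper quartile scaling and without pp4r3a-1 replicate 2 or pp4r3a-2 replicate 1. The lower brassinosteroid genes numbered 1 with DESeq2 and without pp4r3a-1 replicate 2 or pp4r3a-2 replicate 2 or 3. Genes against superoxide and peroxide had 5 higher and 5 lower of 14; CAT2, a photorespiratory catalase overlapping an opposite-strand gene, had log2 0.42, and ELIP1, an early light-induced protein, log2 -1.04. Senescence genes had 4 higher and 4 lower of 9, with SAG13 at log2 -0.93 and SAG21 at log2 0.53.

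Genes of microRNA biogenesis, the process named in the study's title, differed little. Of 19 tested, 4 were higher, 3 lower and 12 not called (median -0.04), and 0 passed 2-fold. These were 21.05% higher and 15.79% lower, against 24.2% and 23.7% of all tested genes. AGO1, the effector of most microRNAs, stood at 196, 195 and 199 CPM in pp4r3a-1, at 178, 164 and 163 CPM in pp4r3a-2 and at 213 to 224 CPM in Col-0 (log2 -0.22, SE 0.038, edgeR adjusted p 6.65e-06). CDC5, a MOS4-complex gene that overlaps an opposite-strand gene, was higher by log2 0.18. Of 49 microRNA target genes, 7 were higher and 22 lower (median -0.14), with 0 at 2-fold or more by estimate and test. TCP4, a target of miR319, stood at 75.4, 83.8 and 77.5 CPM in pp4r3a-1, at 38.4, 39.0 and 41.1 CPM in pp4r3a-2 and at 60.3 to 61.7 CPM in Col-0, so the alleles lay on opposite sides of wild type (log2 -1.0, edgeR adjusted p 2.78e-20). TCP2, another target of miR319, had log2 -0.99. SPL2, a target of miR156, was higher in pp4r3a-2, at 57.5 to 61.4 CPM against 35.1 to 37.4 CPM in pp4r3a-1 and 21.0 to 21.96 CPM in Col-0 (log2 0.72).

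**Figure D3:**
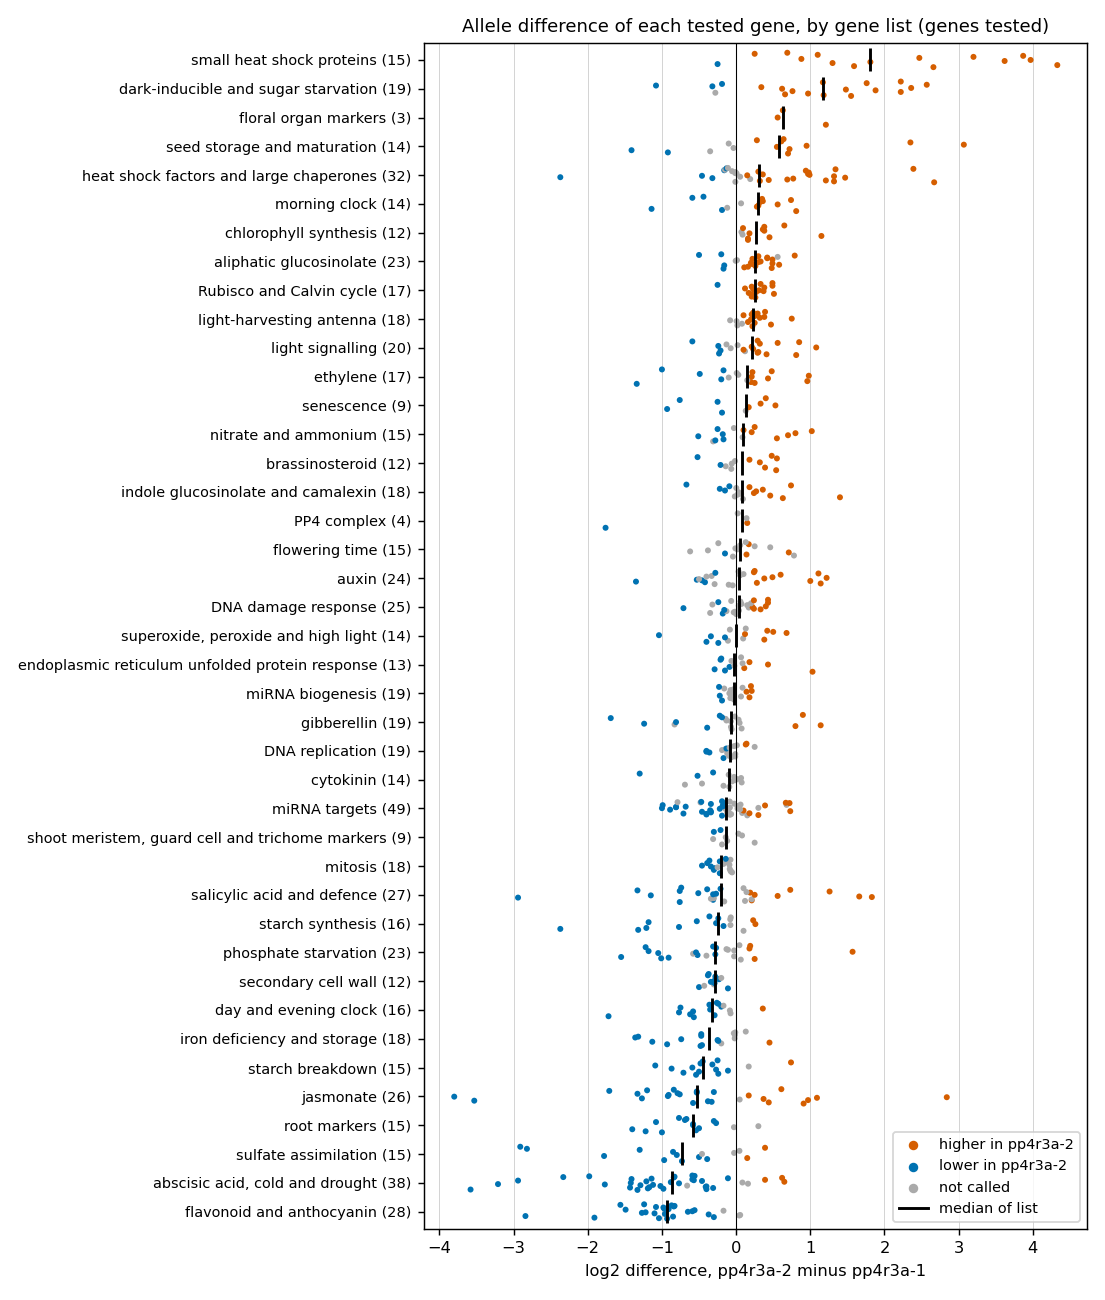
Log2 difference between pp4r3a-2 and pp4r3a-1 (x axis) of each tested member of the 41 gene lists, orange where higher in pp4r3a-2, blue where lower and grey where not called, with a black tick at each list's median. The medians run from 1.81 for small heat shock proteins to -0.93 for flavonoid and anthocyanin genes.

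Among genes called between the alleles, with a mean of at least 1 CPM over the 6 mutant libraries and no overlap between the alleles, the alleles were also called on opposite sides of Col-0 for 322 genes higher and 295 genes lower in pp4r3a-2. RLP19, a receptor-like protein gene, stood at 12.2, 14.8 and 11.7 CPM in pp4r3a-1, at 23.9 to 25.0 CPM in Col-0 but at 43.2, 46.2 and 49.2 CPM in pp4r3a-2 (log2 1.83, edgeR adjusted p 1.29e-22). AT1G72060, a protease inhibitor gene that overlaps an opposite-strand gene, showed the same order at 2.02 to 2.77 CPM, 5.68 to 5.95 CPM and 9.55 to 11.7 CPM (log2 2.2). In the other direction, AT2G25150, an acyltransferase gene, stood at 2.65 to 2.86 CPM in pp4r3a-1, 1.31 to 1.53 CPM in Col-0 and 0.632 to 0.745 CPM in pp4r3a-2 (log2 -2.0). The pseudogenes AT1G43590 and AT1G69140 lay on the same sides of Col-0, with log2 -4.35 and -3.72. Only 2 loci had at most 3 counts in every library of one allele and at least 20 in every library of the other, both in the direction of pp4r3a-1: AT2G29220, a lectin receptor kinase gene (1.27 to 2.18 CPM in pp4r3a-1), and the noncoding RNA AT1G55525 (0.742 to 1.01 CPM).

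Consecutive tested genes at least 2-fold different in the same direction formed 3 runs of 4 or more, where untested loci between them were passed over. The longest held 10 genes lower in pp4r3a-2, from AT4G22475 to AT4G22520 on chromosome 4, with a median log2 of -1.95. It includes lipid-transfer-like genes such as AT4G22485, which stood at 164, 193 and 198 CPM in pp4r3a-1, at 87.9 to 121 CPM in Col-0 but at 25.0, 36.0 and 41.5 CPM in pp4r3a-2 (log2 -2.44, edgeR adjusted p 8.75e-05). Several of these genes overlap on opposite strands or resemble each other, so reads may be shared between them. A run of 5 genes higher in pp4r3a-2, from AT4G10200 to AT4G10270 (median log2 2.29), includes the small heat shock gene HSP22.0. A run of 4 lower genes (median log2 -3.2) consists of AT2G17300 and the overlapping noncoding RNAs AT2G06895, AT2G06905 and AT2G06935, so it holds fewer independent signals than its count. Over the 5 chromosomes the share of tested genes higher in pp4r3a-2 was 23.7% to 25.1% and the share lower 23.2% to 24.0%.

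**Figure D4:**
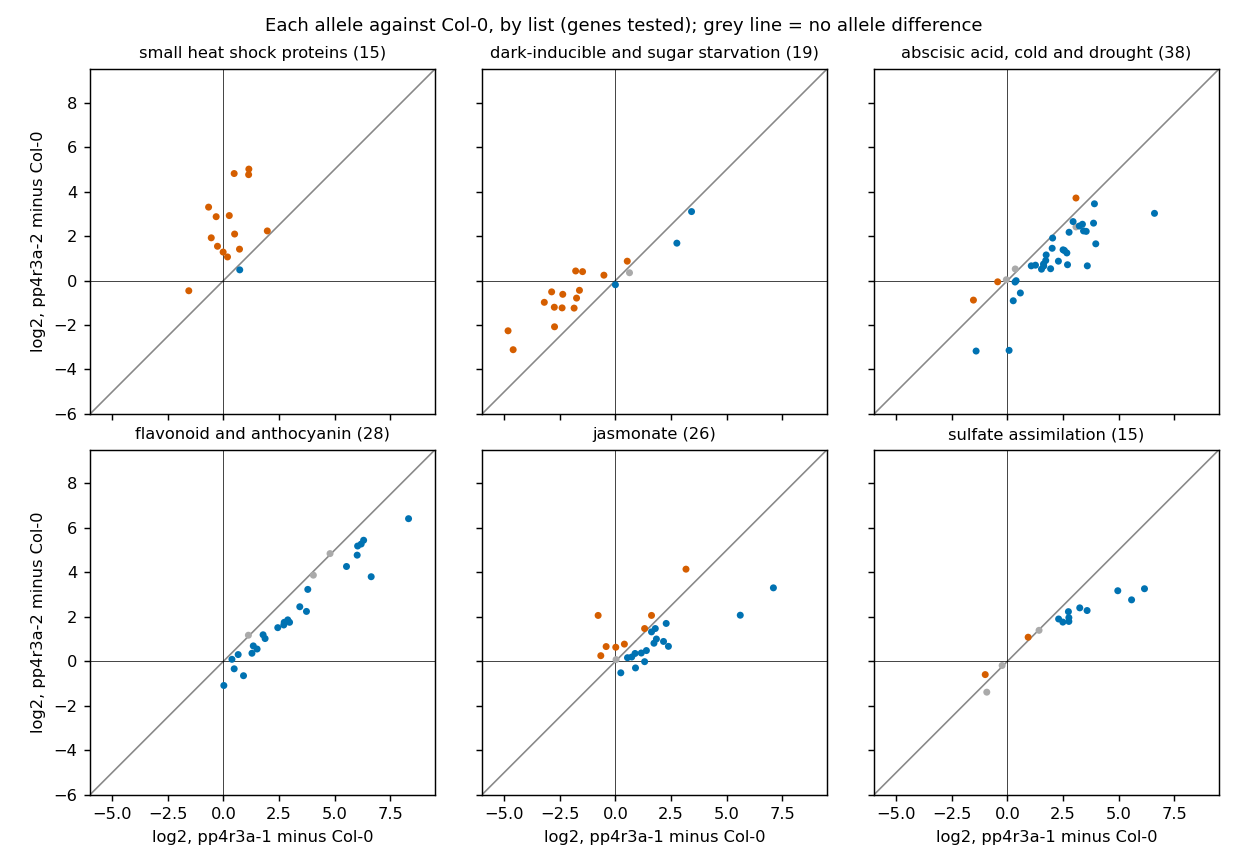
Log2 value of each allele against the shared Col-0 libraries, pp4r3a-1 on the x axis and pp4r3a-2 on the y axis, for tested members of 6 lists; the grey line marks no difference between the alleles, orange and blue mark genes called higher and lower in pp4r3a-2. Small heat shock genes mostly lie above the line, on both sides of x of 0 (list medians 0.26 and 2.09). Dark-inducible genes mostly lie above the line and mostly to the lower left (-1.79 and -0.51). Flavonoid genes mostly lie to the upper right below the line (2.81 and 1.75).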

How the data were processed

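For every library the authors deposited a table that gives 37869 loci with a count for exons and another for introns, per the file headers; only whole numbers occur, and they were taken as raw read counts. Reads were aligned with STAR, per the submitters' processing notes; its version, the counting program, strandedness, the annotation and the build are not given in the sources used here. Gene names, overlaps and upstream sequence came from RefSeq TAIR10.1, in which 37573 of the loci were found.

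Exon counts of all 9 libraries passed through filterByExpr and TMM scaling, and a quasi-likelihood model of edgeR, robust and with 1 mean per genotype, was fitted to them; 22631 genes entered the contrast of pp4r3a-2 minus pp4r3a-1. Tests were two-sided, with Benjamini-Hochberg adjustment over all genes and a threshold of 0.05. An SE is the absolute log2 difference over the square root of F. CPM are counts over the library's exon total in the 22631 tested genes, after TMM scaling. A floor of 3 counts covers counting error only, and SEs the replicates' spread besides. The 3 contrasts share libraries, so their values stand side by side with no correlation.

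The comparison, the 41 gene lists (779 members, 749 tested) and the rules were chosen with earlier results of these data known, and lists got no test. Genes named were PP4R3A and genes taken from its neighbours. Others came from the 12 largest differences each way (at least 1 CPM over the 6 mutant libraries, alleles not overlapping). Further names came from the 6 largest each way at 100 CPM or more and the 6 each way on opposite sides of Col-0. Loci with at most 3 against at least 20 counts and the 4 smallest p of each list were also drawn on. Not every gene under these rules is named, AT1G70640 (log2 -3.56) and AT3G28550 (log2 -1.5) being among those left out. Other names are marked in the text. Alternatives were RLE, upper quartile and library total scaling, no filter and a stricter filter, DESeq2, limma voom, the 6 mutant libraries alone, no organelle genes, an adjusted p under 0.01, a replicate block, leaving out each mutant library, and, chosen after the data were seen, leaving out each Col-0 library. Of the steps, only the main edgeR fit was tested on simulated counts. Fits ran in R 4.3.3 with DESeq2 1.42.0, edgeR 4.0.16 and limma 3.58.1. Tables and figures came from Python 3.11.15 with matplotlib 3.10.9, numpy 2.4.6 and pandas 2.3.3.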

Additional observations from a re-analysis of the deposited data

Results flagged for a closer look

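Among genes called between the alleles, with a mean of at least 1 CPM over the 6 mutant libraries and no overlap between the alleles, 322 higher and 295 lower genes were also called on opposite sides of Col-0. The 6 each way whose nearer allele lay furthest from Col-0 are given here, and the difference between the alleles was tested by the allele contrast itself. In pp4r3a-2 the log2 difference was 2.91 for the pseudogene AT4G01490, 2.21 for NIP2;1, 2.3 for the noncoding RNA AT4G05775, 1.83 for RLP19, 2.29 for AT4G10270 and 2.2 for AT1G72060. It was -4.35 for AT1G43590, -3.72 for AT1G69140, -2.0 for AT2G25150, -2.44 for AT4G22485, -2.5 for AT4G22505 and -2.5 for AT4G22495. AT4G05775 and AT4G10270 overlap each other on opposite strands, as do AT4G22495 and AT4G22505, so their counts cannot be told apart. NIP2;1, AT1G72060 and AT4G22485 also overlap opposite-strand genes, and NIP2;1 had 8 to 10 counts in each pp4r3a-1 library.

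Intron counts were outside the comparison. Per 100 exon counts of PP4R3A they came to 8.40, 7.42 and 6.95 in pp4r3a-1 and to 12.7, 12.3 and 13.3 in pp4r3a-2, above the 1.93, 1.76 and 2.21 of Col-0 in every library. Over all genes, intron counts were 3.03% to 3.23% of all counts in pp4r3a-1, 2.91% to 2.98% in pp4r3a-2 and 2.004% to 2.096% in Col-0.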

How the results depend on the processing

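The 4 counts of genes over the table that were recomputed, those called higher and lower and those at least 2-fold higher and lower, stayed within 1.5 times their reported values; the counts under 1.5-fold and over 4-fold, of genes that did not overlap and of positions against Col-0 were not recomputed. PP4R3A was lower in pp4r3a-2 under every alternative. Genes higher in pp4r3a-2 numbered 4305 to 5538 and genes lower 4174 to 6295. Scaling by library totals alone gave 4567 higher and 6295 lower, a share of 42.0% higher among the calls against 50.6%, and DESeq2 gave 4578 and 4325. Leaving out 1 mutant library gave 4861 to 5161 higher and 4755 to 5114 lower; without pp4r3a-2 replicate 3 these were 5134 and 5030. At least 2-fold differences numbered 378 to 611 higher and 477 to 703 lower, the lowest under the stricter filter and the highest with no filter. The replicate block gave 5422 higher and 5286 lower, with 516 and 615 at 2-fold. Same-numbered libraries of the 2 alleles showed no common deviation (correlations 0.03, 0.01 and 0.02). With so few replicates this cannot exclude that the numbers pair the samples. Of 788 single genes followed, 0 reversed under any alternative; 47 calls were lost with DESeq2 and 55 at an adjusted p under 0.01, and the cause was not tested. Small counts in lists moved most, as for PPX1 in the PP4 complex and for flowering, where SOC1 alone of the 3 higher members was called with DESeq2. Depth limits genes near 3 counts a library, such as AT5G03615 in pp4r3a-1.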

Other observations

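Chloroplast-encoded genes were measured in polyadenylated RNA, where their levels are low. Of 73 tested, 32 were called lower in pp4r3a-2 and 0 higher, with a median log2 difference of -0.36. Their share of the exon counts was 0.427%, 0.525% and 0.962% in the pp4r3a-2 libraries and 0.521% to 0.558% in pp4r3a-1, so replicate 3 of pp4r3a-2 lay on the other side of pp4r3a-1 from replicate 1. Mitochondria-encoded genes had 4 of 30 lower and 1 higher (median -0.03). Among 21 small nuclear RNA loci, 6 were higher in pp4r3a-2 and 0 lower (median 0.36). Of 892 long noncoding RNA loci 157 were higher and 141 lower. The shares of all tested genes were 24.2% higher and 23.7% lower. The higher small nuclear RNA loci made up 28.57% of their class, close to the share of all tested genes. For long noncoding RNA and mitochondria-encoded loci, both shares lay below those of all tested genes. Leaving out the organelle genes before scaling gave 5419 higher and 5406 lower genes.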
